A study of Mus musculus with 4 samples.

Results

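The proteasome genes of mouse embryonic stem cells were compared after loss of Exosc3, which belongs to the core of the exosome, a nuclear and cytoplasmic RNA-degrading complex. Members were chosen by symbol alone, as every listed gene named Psma, Psmb, Psmc, Psmd, Psme, Psmf or Psmg with a number, which gave 43 of 22883 rows. No symbol had more than 1 row. The proteasome is the protease that degrades proteins tagged with ubiquitin. Its core particle (20S) is a stack of alpha rings, which gate the entry, and beta rings, which hold the catalytic sites. The regulatory particle (19S) caps the core with a ring of ATPases that unfold the substrate, and with a lid that removes the ubiquitin chain. Embryonic stem cells divide quickly and express the core particle and its cap at a high level.

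In the Exosc3-depleted group, doxycycline had been taken away for 3 days, and in the Exosc3-present group the cells stayed in 0.1 µg/ml. Both groups are Exosc3 CKO clones (a conditional knockout) made in V6.5 cells, grown without feeders, and each has 2 libraries. No label says how many clones or cultures the libraries came from, so each p-value measures the spread between these libraries, which may be technical, and doxycycline and Exosc3 changed together. The values are FPKM, fragments scaled to the length of the gene model and to the library total, so each is a share of a library and not an amount per cell. In bulk RNA, less RNA per cell and fewer cells of a kind cannot be told apart.

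Fragments recovered from the FPKM values put the library totals at 38095698 and 41968325 in the Exosc3-depleted libraries and 60851774 and 55233386 in the Exosc3-present ones. Fragments within listed gene models were 42.4% and 44.1% of the total in Exosc3-depleted libraries, against 49.7% and 51.8% in Exosc3-present ones. The 50 highest rows held 52.2% and 53.9% of summed FPKM in Exosc3-depleted libraries, against 45.0% and 43.7% in Exosc3-present ones. The part of these differences in the falls below was not tested. Tested members held between 27 and 27931 fragments in a library. Exosc3 itself was at 0.635 and 0.691 FPKM in Exosc3-depleted cells against 24.2 and 23.2 FPKM in Exosc3-present cells. The stem cell marker Pou5f1 was at 413 and 286 FPKM in Exosc3-depleted cells and at 471 and 434 FPKM in Exosc3-present cells. Of 10 such markers 7 had a row and 5 of these fell, against 30.1% of all tested rows, and their summed level was 1972 and 1319 FPKM in Exosc3-depleted cells against 3123 and 3137 FPKM in Exosc3-present cells. That shift moved with every result below, and its part in them was not tested. The blood cell gene Ptprc did not exceed 0.0168 FPKM and the fibroblast gene Postn was listed at 0 in all 4 libraries, while summed levels stayed between 13.8 and 22.6 FPKM for 5 blood cell markers and between 1.74 and 3.06 FPKM for 6 fibroblast markers. Of those lists Cd74 and Coro1a fell. Thy1 was called lower and Twist1 higher, but each passed the filter on low values only through the group where it is high.

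Most proteasome genes held a smaller share of the RNA in Exosc3-depleted cells. Of the 43 members, 41 passed the filter on low values (a mean FPKM of at least 0.5) and were tested with limma on log2(FPKM + 0.5). Of these 30 fell and 0 rose at an adjusted p under 0.05, while 11 did not pass. Among all 9336 tested rows 30.1% fell and 12.6% rose. The members' median log2 fold change was -0.68, and that of all tested rows was -0.27. Both Exosc3-depleted libraries lay below both Exosc3-present ones in 37 of the 41 members, against 50.9% of all tested rows. Among the 716 rows with a mean of at least 50 FPKM 42.9% fell and the median was -0.43, and of the 22 members in that range 16 fell.

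How many members fell depended on how libraries were scaled and on which were used. With median of ratios scaling, which moved the median of all rows to -0.06, 6 of 41 members fell (Psmd7, Psma8, Psmg2, Psmd2, Psma6 and Psma1), against 19.8% of all rows. With 4 other scalings between 4 and 19 members fell and 0 rose. The share of members was 12.2% against 19.2% of all rows with quantile normalization, and 9.76% against 14.2% without the 50 highest rows. It was 19.5% against 19.6% with scaling to fragments within listed models, and 46.3% against 24.4% with the length trend removed. Under those 5 scalings rises were between 45.2% and 53.7% of all calls, against 29.6% with the values as deposited. The members' median stayed negative under all 5, between -0.46 and -0.33, and lay 0.28 to 0.40 below the median row, against 0.41 below it as deposited. In fits with 1 library left out, the members' median was -0.64 or -0.71 when Exosc3-present replicate 1 or 2 was dropped. It was -0.74 or -0.57 when the dropped library was Exosc3-depleted replicate 1 or 2. Among members and among all tested rows alike, fewer were called lower without either Exosc3-present library, and more without either Exosc3-depleted one. Of the 30 members that fell as deposited, 11 passed under none of those 5 scalings. The small falls given below are therefore called on the deposited FPKM scale, and Psmd7 and Psmg2 fell under every scaling tried. So did Psma8, but the direction of its change was set by the filter on low values, which it passed only through the Exosc3-present libraries.

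**Figure D1:**
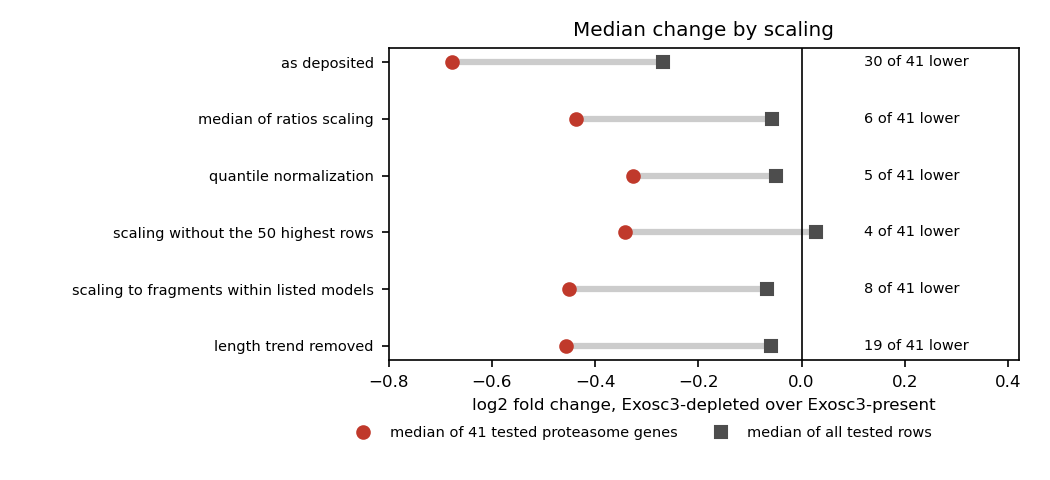
Median log2 fold change (x axis, Exosc3-depleted over Exosc3-present) of the 41 tested proteasome genes (circles) and of all 9336 tested rows (squares) under each scaling, with the number of members called lower at the right. The circle lies left of the square in every line, while the number called lower ranges from 4 to 30.

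Every alpha ring gene with a row fell on the deposited scale. Psma4 and Psma5 had no row, and each of the other 5 members fell, against 30.1% of all tested rows. The median log2 fold change of these 5 was -0.87. Psma6 was at 39.3 and 53.4 FPKM in Exosc3-depleted cells against 91.6 and 91.8 FPKM in Exosc3-present cells (log2 -0.99, SE 0.19, adjusted p = 0.00708). Psma1 was at 29.1 and 34.8 FPKM in Exosc3-depleted cells against 52.7 and 65.2 FPKM in Exosc3-present cells (log2 -0.87, adjusted p = 0.0107). For both genes the groups stood apart by more than the replicates of either. The Exosc3-depleted replicates of Psma7 were far apart, at 94.9 and 49.2 FPKM, whereas Exosc3-present cells held 136 and 134 FPKM (log2 -0.97, SE 0.30, adjusted p = 0.0347). Psma2 averaged 68.2 ± 0.41 FPKM in Exosc3-depleted cells and 108 ± 2.3 FPKM in Exosc3-present cells (SD, n = 2 each), and Psma3 fell with it. Psma3 averaged 46.1 ± 1.4 FPKM in Exosc3-depleted cells and 72.5 ± 9.2 FPKM in Exosc3-present cells (SD, n = 2 each). Psma3 passed under none of the 5 other scalings, and Psma2 and Psma7 passed under 1 each.

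The beta ring moved less evenly, and its 3 most abundant genes did not pass. Of its 7 genes 2 fell, a share near the 30.1% of all tested rows, and the median was log2 -0.47. Among tested rows with a mean of at least 50 FPKM, where these 7 genes lie, 42.9% fell. Psmb6, which carries the caspase-like site, was the most abundant member in both groups, at 313 and 235 FPKM in Exosc3-depleted cells against 352 and 250 FPKM in Exosc3-present cells. Its groups overlapped (log2 -0.13, 95% interval -0.67 to 0.41, adjusted p = 0.668), and its sign was positive under all 5 other scalings. Psmb5, which carries the chymotrypsin-like site, was at 121 and 75.2 FPKM in Exosc3-depleted cells against 135 and 101 FPKM in Exosc3-present cells (log2 -0.29, 95% interval -0.91 to 0.32, adjusted p = 0.398), again with overlap and with a positive sign under quantile normalization and under scaling without the 50 highest rows. Psmb7, which carries the trypsin-like site, was the catalytic gene that fell, at 123 and 95.6 FPKM in Exosc3-depleted cells against 194 and 172 FPKM in Exosc3-present cells (log2 -0.75, SE 0.19, adjusted p = 0.0174).

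The other 4 beta genes encode subunits without a catalytic site. Psmb2 fell (log2 -0.51, adjusted p = 0.0393), with 80.0 and 71.6 FPKM in Exosc3-depleted cells and 106 and 110 FPKM in Exosc3-present cells. Psmb4 had a larger difference that did not pass (log2 -0.71, SE 0.25, adjusted p = 0.0596), with 171 and 106 FPKM in Exosc3-depleted cells and 250 and 196 FPKM in Exosc3-present cells. Its replicates differed by more than 50 FPKM in either group. Psmb1 (log2 -0.47, adjusted p = 0.0658) and Psmb3 (log2 -0.41, adjusted p = 0.244) did not pass either, and the groups of Psmb3 overlapped, at 215 and 160 FPKM in Exosc3-depleted cells against 308 and 195 FPKM in Exosc3-present cells.

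**Figure D2:**
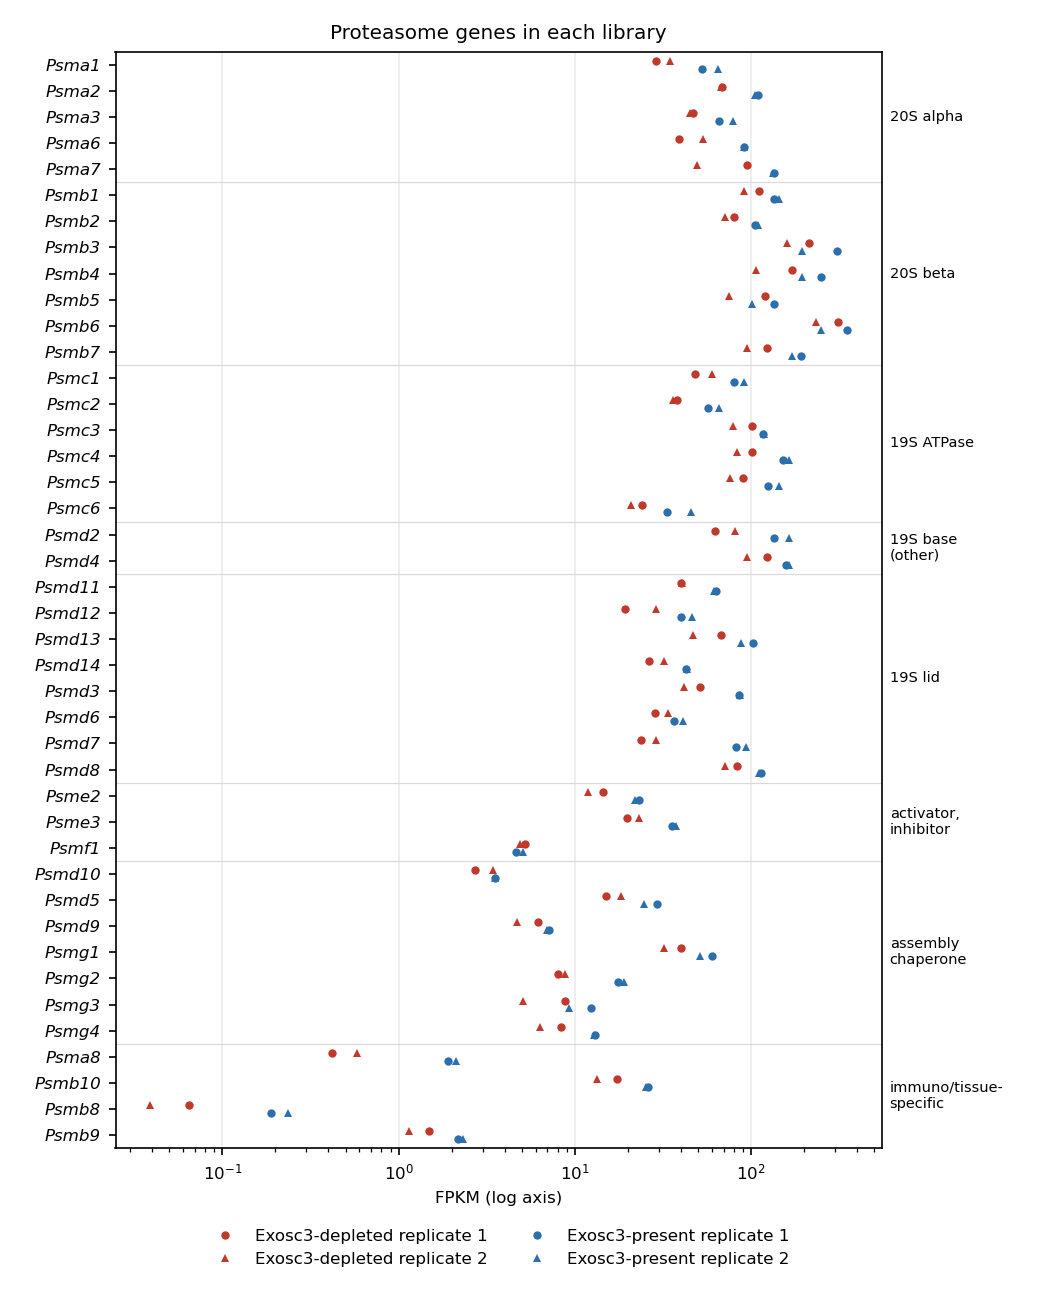
FPKM (x axis, log scale) of 42 proteasome genes in each of the 4 libraries, grouped by role (Psmb11, listed at 0 in a library of each group, is left out). Red marks are Exosc3-depleted and blue marks Exosc3-present libraries, circles replicate 1 and triangles replicate 2; red lies left of blue for most genes, and the pairs of Psmb6, Psmb5, Psmb3 and Psmf1 overlap.

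Differences between replicates varied with the length of the gene model, and the beta ring genes are among the short ones. Members had a median recovered length of 1296 bases, against 2494 bases for tested rows. Among the 13 tested members under 1000 bases, the median log2 of replicate 1 over replicate 2 was 0.36 in Exosc3-depleted cells and 0.08 in Exosc3-present cells. Among the 28 longer ones it was 0.07 in Exosc3-depleted cells and -0.10 in Exosc3-present cells. Across members, which share their libraries, Spearman's rho of that ratio with length was -0.50 in Exosc3-depleted and -0.45 in Exosc3-present cells. Across all tested rows it was -0.46 in Exosc3-depleted and -0.28 in Exosc3-present cells. The change between groups showed no such trend (rho -0.13 over the 41 members and 0.02 over all rows). With a smooth length trend taken out of each library, 19 members (46.3%) fell, the highest count among the 5 scalings, against 24.4% of all rows.

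**Figure D3:**
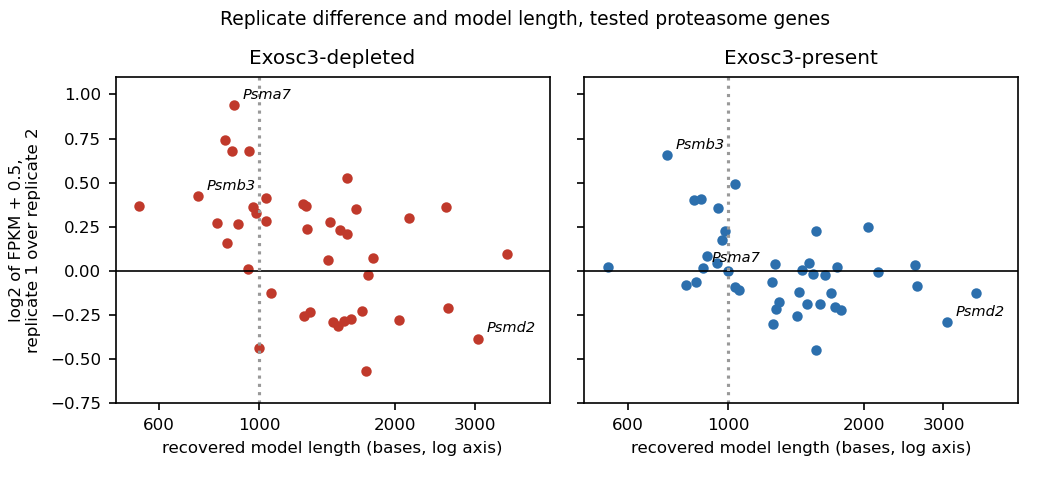
Log2 of replicate 1 over replicate 2 (y axis, FPKM + 0.5) against recovered model length (x axis, log scale) for the 41 tested proteasome genes, in Exosc3-depleted cells on the left and Exosc3-present cells on the right. Each point is a gene and the dotted line marks 1000 bases; the short models Psma7 (Exosc3-depleted) and Psmb3 (Exosc3-present) lie highest, and rho is -0.50 on the left and -0.45 on the right.

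Among the 6 ATPases of the 19S base, which pull substrates into the core, 5 fell and Psmc3 did not pass. The median was log2 -0.70, and over all tested rows 30.1% fell. Psmc4 was at 101 and 83.4 FPKM in Exosc3-depleted cells against 152 and 165 FPKM in Exosc3-present cells (log2 -0.79, SE 0.17, adjusted p = 0.0108). Psmc6 had the lowest level of the 6, at 24.1 and 20.8 FPKM in Exosc3-depleted cells against 33.3 and 45.5 FPKM in Exosc3-present cells (log2 -0.78, adjusted p = 0.0219). Psmc2 fell by 0.72, Psmc5 by 0.69 and Psmc1 by 0.66 on the log2 scale. Psmc1 passed under none of the 5 other scalings. Psmc2, Psmc4, Psmc5 and Psmc6 passed only under the one with the length trend removed. Psmc3 was at 102 and 79.7 FPKM in Exosc3-depleted cells against 117 and 119 FPKM in Exosc3-present cells, without overlap (log2 -0.39, 95% interval -0.82 to 0.03, adjusted p = 0.121).

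Of the 3 base genes that are not ATPases, Psmd1 had no row and the other two fell. Psmd2, the scaffold that docks ubiquitin shuttle factors, was at 62.5 and 81.7 FPKM in Exosc3-depleted cells against 135 and 166 FPKM in Exosc3-present cells, a 2.09-fold lower mean (log2 -1.06, SE 0.20, adjusted p = 0.00611). It fell under 4 of the 5 other scalings, the exception being the one without the 50 highest rows (adjusted p = 0.0526). Psmd4, a ubiquitin receptor, was at 123 and 94.6 FPKM in Exosc3-depleted cells against 157 and 165 FPKM in Exosc3-present cells (log2 -0.57, adjusted p = 0.0413), and it passed under none of those scalings.

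The lid held the largest fall among the members on the log2(FPKM + 0.5) scale. With 0.1 added in place of 0.5, Psma8 fell more than the lid gene Psmd7 (log2 -1.83 against -1.74). Psmd7, the partner of the deubiquitinase in the lid, was at 23.7 and 28.8 FPKM in Exosc3-depleted cells against 81.9 and 93.3 FPKM in Exosc3-present cells. The 3.34-fold lower mean (log2 -1.72, SE 0.18, adjusted p = 0.000751) was many times the distance between replicates, and 2.2% of tested rows had a lower log2 fold change. It passed in all 17 alternative fits, with log2 fold changes from -1.86 to -1.35. Psmd14, the deubiquitinase itself, changed less, with 26.4 and 32.3 FPKM in Exosc3-depleted cells against 42.7 and 43.2 FPKM in Exosc3-present cells (log2 -0.55, adjusted p = 0.0436). The levels of the pair in Exosc3-depleted cells were thus close in FPKM, whereas in Exosc3-present cells Psmd7 stood well above Psmd14.

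The other 6 lid genes encode structural subunits, of which 5 fell, against 30.1% of all tested rows. Psmd3 was at 51.3 and 41.6 FPKM in Exosc3-depleted cells against 85.8 and 86.2 FPKM in Exosc3-present cells (log2 -0.89, SE 0.18, adjusted p = 0.00718). Psmd12 was at 19.3 and 28.9 FPKM in Exosc3-depleted cells against 40.2 and 46.5 FPKM in Exosc3-present cells (log2 -0.86, adjusted p = 0.0221). Psmd11 had close replicates in both groups, averaging 40.4 ± 0.42 FPKM in Exosc3-depleted cells and 62.5 ± 0.74 FPKM in Exosc3-present cells (SD, n = 2 each; log2 -0.62, adjusted p = 0.0184). Psmd13 fell by 0.75 and Psmd8 by 0.54 on the log2 scale. Psmd6 was at 28.7 and 33.8 FPKM in Exosc3-depleted cells against 36.6 and 41.4 FPKM in Exosc3-present cells and did not pass (log2 -0.32, adjusted p = 0.192). Its sign was positive under quantile normalization and under scaling without the 50 highest rows.

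**Figure D4:**
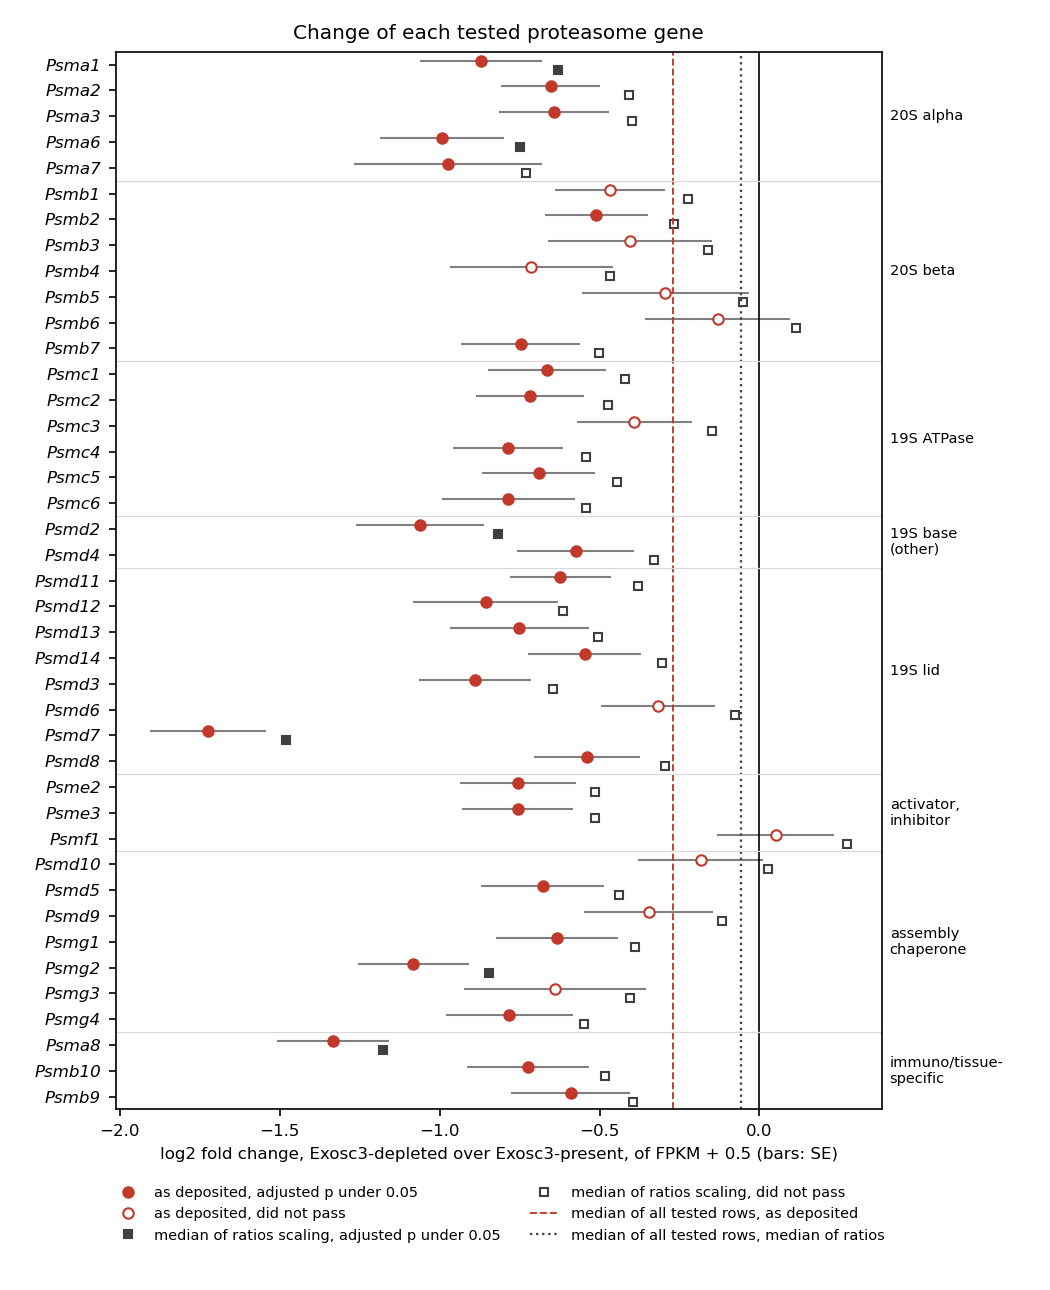
Log2 fold change (x axis, Exosc3-depleted over Exosc3-present) of each of the 41 tested proteasome genes, as deposited (circles, with SE bars) and after median of ratios scaling (squares), filled where the adjusted p was under 0.05. Psmd7 lies farthest left at -1.72 as deposited, Psmf1 lies at 0.05 as deposited, 30 circles but only 6 squares are filled, and Psmb6 and Psmd10 cross to the right of 0 after scaling.

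Activators that open the core in place of the 19S cap fell where they could be tested, and the inhibitor gene did not pass. Psme1 and Psme4 had no row. Psme3, a nuclear activator that works without ubiquitin, was at 19.9 and 23.1 FPKM in Exosc3-depleted cells against 35.5 and 37.7 FPKM in Exosc3-present cells (log2 -0.76, SE 0.17, adjusted p = 0.0125). Psme2, a subunit of the interferon-induced activator, was at 14.5 and 12.0 FPKM in Exosc3-depleted cells against 23.2 and 21.9 FPKM in Exosc3-present cells (log2 -0.75, adjusted p = 0.0155). Psmf1, which encodes a protein that inhibits the core in vitro, was at 5.25 and 4.89 FPKM in Exosc3-depleted cells and at 4.65 and 5.11 FPKM in Exosc3-present cells. Its groups overlapped and it was the member with the highest log2 fold change (0.05, 95% interval -0.38 to 0.48, adjusted p = 0.843).

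Of 7 assembly chaperones, which help to build the particles and are not part of the finished proteasome, 4 fell, against 30.1% of all tested rows. Psmg2, which pairs with Psmg1 to place the alpha subunits, was at 8.03 and 8.80 FPKM in Exosc3-depleted cells against 17.7 and 19.1 FPKM in Exosc3-present cells (log2 -1.08, SE 0.17, adjusted p = 0.00337). It fell under all 5 other scalings, but with Exosc3-present replicate 2 left out its adjusted p was 0.0616. Its partner Psmg1 was at 40.2 and 32.0 FPKM in Exosc3-depleted cells against 60.4 and 51.6 FPKM in Exosc3-present cells (log2 -0.63, adjusted p = 0.0342), and did not pass under any of those scalings. In the second pair of alpha ring chaperones Psmg4 fell (log2 -0.78, adjusted p = 0.0184), while Psmg3 was at 8.79 and 5.06 FPKM in Exosc3-depleted cells against 12.4 and 9.24 FPKM in Exosc3-present cells (log2 -0.64, SE 0.28, adjusted p = 0.112). Of the chaperones of the 19S base, Psmd5 fell by 0.68 on the log2 scale. Psmd9 (log2 -0.35, adjusted p = 0.207) and Psmd10 (log2 -0.18, adjusted p = 0.48) did not pass, and Psmd10 was positive under the 5 other scalings.

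The immunoproteasome genes encode catalytic subunits that replace Psmb5, Psmb6 and Psmb7 in immune cells and after interferon. All were below their usual partners here. Psmb10 was at 17.4 and 13.4 FPKM in Exosc3-depleted cells against 26.0 and 25.3 FPKM in Exosc3-present cells (log2 -0.72, SE 0.19, adjusted p = 0.0216). Relative to its partner Psmb7 it stood at 14.2% and 14.1% in Exosc3-depleted cells and at 13.4% and 14.7% in Exosc3-present cells, ranges that overlap. Psmb9 was at 1.498 and 1.153 FPKM in Exosc3-depleted cells against 2.16 and 2.31 FPKM in Exosc3-present cells (log2 -0.59, adjusted p = 0.0404), on 46 and 39 fragments in Exosc3-depleted and 106 and 103 in Exosc3-present cells. It equalled 0.479% and 0.490% of Psmb6 in Exosc3-depleted cells and 0.613% and 0.924% in Exosc3-present cells. Psmb8 fell below the filter, with 3 and 2 fragments in Exosc3-depleted cells and 14 and 16 in Exosc3-present cells, and was not tested. Cd74, a blood cell marker that also serves antigen presentation, was at 0.612 and 0.606 FPKM in Exosc3-depleted cells against 4.19 and 4.53 FPKM in Exosc3-present cells, and its part in these results was not tested.

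A pair of members are bound to particular tissues. Psma8, the alpha subunit of the testis proteasome, was at 0.419 and 0.577 FPKM in Exosc3-depleted cells against 1.90 and 2.12 FPKM in Exosc3-present cells, on 27 and 41 fragments in Exosc3-depleted and 196 and 198 in Exosc3-present cells. Its mean was 4.04-fold lower (log2 -1.33, SE 0.17, adjusted p = 0.00155), and it fell in all 16 alternative fits that included it. Its level passed the filter through the Exosc3-present libraries, since its Exosc3-depleted mean was 0.498 FPKM. Psmb11, the thymus subunit, was listed at 0 in a library of each group and did not exceed 0.00853 FPKM.

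The neighbour of Psmb9 went the other way. Psmb9 and Tap1, which encodes a subunit of the peptide transporter that feeds antigen presentation, are read in opposite directions from starts 226 bases apart, so their RefSeq promoter windows share 275 bases. Tap1 was at 13.5 and 10.3 FPKM in Exosc3-depleted cells against 1.20 and 1.23 FPKM in Exosc3-present cells (log2 2.84, SE 0.21, adjusted p = 0.000286). Its groups stood far apart, with the Exosc3-depleted libraries above, the reverse of Psmb9. The log2 fold change of Psmb9 stayed negative under the 5 other scalings but passed under none of them. The Psmb9 window is printed to show that stretch (GRCm38.p6, chr17:34187281-34187580, minus strand, 250 bases before to 50 after the start), with the 226 bases from the Tap1 start to the base before the Psmb9 start in capitals.
Psmb9: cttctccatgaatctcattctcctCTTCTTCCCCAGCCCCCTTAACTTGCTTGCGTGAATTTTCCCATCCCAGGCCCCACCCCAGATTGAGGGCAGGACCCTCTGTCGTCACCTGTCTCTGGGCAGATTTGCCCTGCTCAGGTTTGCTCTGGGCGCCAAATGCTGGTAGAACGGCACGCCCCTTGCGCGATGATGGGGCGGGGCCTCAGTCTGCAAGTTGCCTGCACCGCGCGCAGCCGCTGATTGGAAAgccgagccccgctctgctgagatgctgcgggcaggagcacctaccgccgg
Of other antigen presentation genes, Tap2 (log2 0.42, adjusted p = 0.092) and Irf1 (log2 -0.24, adjusted p = 0.333) did not pass.

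For genes that work beside the proteasome, the counts stand against the same 30.1% lower and 12.6% higher over all tested rows, and no difference between them and the members was tested. Of 10 associated factors outside the symbol rule 7 had a row, and of these 1 fell. That gene was Uchl5, a deubiquitinase of the 19S particle, at 5.53 and 8.30 FPKM in Exosc3-depleted cells against 15.2 and 17.7 FPKM in Exosc3-present cells (log2 -1.21, SE 0.23, adjusted p = 0.00633). Txnl1, a thioredoxin-like protein bound to the 19S particle, was at 19.3 and 24.6 FPKM in Exosc3-depleted cells against 15.3 and 15.8 FPKM in Exosc3-present cells and did not pass (log2 0.47, adjusted p = 0.0828). Pomp, the maturation factor of the core, did not pass (log2 -0.42, adjusted p = 0.0801), nor did AI314180, an older symbol of the proteasome adaptor Ecpas (log2 -0.80, adjusted p = 0.0581). None of 5 tested genes for ubiquitin or its activation passed, by limma at an adjusted p under 0.05 or at an unadjusted p under 0.05.

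Both tested transcription factors that are known to raise proteasome genes in mammals fell. Nfe2l1, the factor that restores proteasome gene expression when the protease is blocked, was at 6.75 and 9.58 FPKM in Exosc3-depleted cells against 18.9 and 20.7 FPKM in Exosc3-present cells (log2 -1.25, SE 0.21, adjusted p = 0.00432). Nfe2l2, the factor of the oxidative stress response, was at 3.26 and 5.63 FPKM in Exosc3-depleted cells against 9.68 and 9.75 FPKM in Exosc3-present cells (log2 -1.09, adjusted p = 0.0144). Ngly1, Ddi2 and Keap1 of that list had no row. Among 8 tested genes for VCP, its cofactors and the shuttle factors, 2 fell, a share near the 30.1% of all tested rows. Vcp, the ATPase that extracts ubiquitinated proteins, was at 70.7 and 95.3 FPKM in Exosc3-depleted cells against 151 and 169 FPKM in Exosc3-present cells (log2 -0.95, adjusted p = 0.0083), and the shuttle gene Ubqln1 fell by 0.59 on the log2 scale.

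Promoter windows from RefSeq (GRCm38.p6) were found for 35 of the 43 members, of which 3 had several windows. They were searched on both strands for short motifs that were chosen after the values were seen. The letters CCGGAAG, a sequence that ETS factors read, were in 13 of the 35 members (37.1%), against 9.93% of 27025 genes. They were in 11 of the 24 members with a window that fell and in 2 of the 9 that did not pass. The same split was not made over all tested rows, and the 27025 genes are not limited to those rows. A link between these letters and a fall was not tested. The letters TGACNNNGC, the core of the antioxidant response element read by Nfe2l1 and Nfe2l2, were in 5 members (14.3%), Psmc6, Psmd12, Psmb5, Psmb6 and Psmd9, against 14.0% of all genes. A CCAAT box was in 40.0% of members and 41.1% of all genes, and a GC box (GGGCGG) in 54.3% of members and 38.2% of all genes. A match is a description of the letters and not of a bound site.

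The windows below show how the letters sit in the member with the largest fall that had a single window (Psmd2, chr16:20651402-20651701, plus strand) and in the members with the highest log2 fold changes (Psmb6, chr11:70525107-70525406, plus strand, and Psmf1, chr2:151741261-151741560, minus strand). Capitals mark CCGGAAG, here on the reverse strand as CTTCCGG, in Psmd2 and TGACNNNGC in Psmb6. Psmf1 held neither in full. The shorter letters CCGGAA do occur in Psmf1, on the reverse strand, and also outside the capitals in Psmd2.
Psmd2: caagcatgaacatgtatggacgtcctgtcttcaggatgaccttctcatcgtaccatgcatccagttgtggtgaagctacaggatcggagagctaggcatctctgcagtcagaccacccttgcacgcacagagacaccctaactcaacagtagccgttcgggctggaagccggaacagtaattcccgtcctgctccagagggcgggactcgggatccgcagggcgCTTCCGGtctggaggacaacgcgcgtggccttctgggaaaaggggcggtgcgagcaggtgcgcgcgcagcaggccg
Psmb6: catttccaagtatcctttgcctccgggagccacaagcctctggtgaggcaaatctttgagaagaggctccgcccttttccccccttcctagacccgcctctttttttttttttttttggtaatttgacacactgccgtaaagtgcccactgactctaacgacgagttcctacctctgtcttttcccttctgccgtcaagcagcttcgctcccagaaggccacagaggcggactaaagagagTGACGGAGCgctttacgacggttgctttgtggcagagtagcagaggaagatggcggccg
Psmf1: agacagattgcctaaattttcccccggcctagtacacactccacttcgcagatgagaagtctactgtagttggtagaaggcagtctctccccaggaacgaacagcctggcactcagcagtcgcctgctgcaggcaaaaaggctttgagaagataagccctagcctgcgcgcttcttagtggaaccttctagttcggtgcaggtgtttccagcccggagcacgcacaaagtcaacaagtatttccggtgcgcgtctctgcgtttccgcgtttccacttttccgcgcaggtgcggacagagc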

How the data were processed

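RNA of 4 libraries was analysed from 1 deposited table of FPKM values per gene model, with 1 column per library, per the file headers. Per the labels' protocols, total RNA with a passing integrity score was depleted of ribosomal RNA and made into stranded paired-end libraries. The genome mm9 and the tools STAR, edgeR, Bowtie2, bedtools and Picard are named by the authors, with no role, in the submitters' processing notes, so the step that made the deposited FPKM is not given in the sources used here. It is also not recorded how fragments shared with processed copies were counted (RefSeq names 6 pseudogenes for these genes), so single values may include some of them.

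Groups were compared by limma 3.58.1 (R 4.3.3) after log2(FPKM + 0.5), letting the prior variance follow the level, without covariates. Rows averaging at least 0.5 FPKM entered (9336). Two-sided p-values were adjusted by Benjamini-Hochberg across these rows, and the threshold was 0.05. Fold changes are on the log2(FPKM + 0.5) scale, which understates low genes, and a fold of means is a ratio of mean FPKM. Intervals are 95%. Whole fragments and model lengths were recovered from the steps between FPKM values. All 15471 rows above 0 came out whole within 0.00017 of a fragment, and the shortest whole length that gave this was kept. They served depth, lengths and 2 scalings. Alternatives varied the pseudocount, filter, scaling, variance model, threshold, replicate block and libraries. The fit and the recovery were tested on simulated data.

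Every member is accounted for. Of the other lists, the genes that passed and the 4 with the smallest p could be named, and markers served to check the cell type. Members, lists and rules were chosen with earlier results of these data known. The length trend and the scaling to listed models were added after the data were seen. List genes with an older symbol in the table were matched by that symbol. Some genes of these lists are not reported here.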

Additional observations from a re-analysis of the deposited data

How the results depend on the processing

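Changes of pseudocount, variance model or filter left between 24 and 30 members called lower and 0 higher, and thresholds of 0.01 and 0.1 left 6 and 32. Scaling moved the count of members lower to 6 with median of ratios, 5 with quantile normalization, 4 without the 50 highest rows, 8 with fragments within listed models and 19 with the length trend removed. Their median was -0.44, -0.33, -0.34, -0.45 and -0.46 in that order. All rows called lower numbered 1848, 1795, 1330 and 1828 under the first 4 of these, against 2806, and those called higher 1931 with the length trend removed and 667 with a mean FPKM of at least 2, against 1177. With 1 library left out, members lower ranged from 6 to 37, their median from -0.74 to -0.57, all rows lower from 1040 to 4808 and higher from 719 to 2123. Such a fit assumes that the lone library varies like the other group, and the cause of these shifts was not tested.

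The signs that turned belonged to members that had not passed. Psmb6 was at 0.11, 0.29, 0.21, 0.10 and 0.076 under the 5 scalings in the same order, and Psmd10 at 0.028, 0.021, 0.11, 0.017 and 0.042. Quantile normalization also turned Psmb3 (0.040), Psmd6 (0.065), Psmb5 (0.10) and Psmc3 (0.031), and scaling without the 50 highest rows Psmd6 (0.021) and Psmb5 (0.047). With 1 library left out, Psmb6 ranged from -0.38 to 0.12, Psmb5 from -0.63 to 0.044 and Psmf1 from -0.011 to 0.11.

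With the replicate number as a block, 33 members fell, and 3468 rows were lower and 1431 higher. The correlation of same-numbered libraries' deviations was 0.24, over 2 numbers only, so the libraries share a number and are not taken as pairs. The values with few fragments, Psmb8, Psmb9, Psmb11 and Psma8, are the ones that depth limits.
A count-based fit of the recovered fragments is not reported, because the deposited values are FPKM. The scaling to listed models and the removal of the length trend were chosen after seeing the data.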
